A study of Mus musculus with 31 samples.

Results

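The comparison described here is that of CD4+ T cells from the choroid plexus of mice housed in an enriched environment (EE) with those of mice housed in a standard environment (SE). Its members are the 17 libraries of the CD4 sort, 9 from EE and 8 from SE, of 31 libraries in the series, taken by the cell type and environment given in the sample titles. All 485 genes of the deposited table were examined, of which 483 could be tested, because Cd8a and Cd8b1 had 0 counts in all 17 libraries. The animals of both groups were female C57BL6/J mice without transgene or treatment. EE mice were placed at weaning, 4 weeks after birth, into large cages of 12 to 15 animals that held toys, tunnels and running wheels, exchanged regularly, and stayed there for 4 weeks. SE mice were kept 5 to 6 to a cage without objects. In each experiment the mice of one environment shared one cage, so an effect of the cage and an effect of the environment cannot be told apart. Choroid plexus tissue was digested with collagenase, and CD45+ CD11b- CD3+ CD4+ cells were sorted into pools of 6 to 15 cells that were lysed directly. RNA molecules were counted with unique molecular identifiers (UMIs), and the values below are normalised UMI counts, which are the UMI counts of a library divided by one size factor. Nothing in the labels ties a library to a separate culture or animal beyond an animal number, so the p-values measure the spread between these libraries. Of these numbers 6 recur under both first numbers within an environment, and if a recurring number is the same mouse, the 17 libraries come from 11 mice. With such libraries treated as 1 animal, the limma fit had 0 genes with an adjusted p under 0.05, 21 with an unadjusted p under 0.05 and a smallest adjusted p of 0.153.

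The choroid plexus makes the cerebrospinal fluid and is one of the places where T cells reside at the border of the brain. Most of its CD4+ T cells are antigen-experienced cells that can secrete cytokines such as interferon gamma. All cells also hold general stress programs. The best known of these is the heat shock response, in which the transcription factor HSF1 binds repeated GAA and TTC units before the genes of the HSP70, HSP40 and HSP90 chaperones, which fold new and damaged proteins.

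Summed over the table, UMIs ran from 1910 to 20140 per CD4 library and the number of genes detected from 396 to 483, and the full depth is larger because the table holds a subset of genes. The log2 UMI total differed between EE and SE by -0.04 (exact permutation test within first numbers, two-sided, p = 0.864), and the number of sorted cells by 0.72 cells (exact permutation p = 0.627). The sample titles carry a first number, 1 or 2, that the labels do not explain and that may mark the 2 series of experiments in which choroid plexus was collected. Libraries with the number 2 were deeper (8979 to 20140 UMIs, n = 6) than those with the number 1 (1910 to 6900 UMIs, n = 11), and 25 of 483 genes (5.18%) differed between the numbers in CD4 libraries at a limma adjusted p under 0.05. The nuclear RNA Malat1 stood at 49.9 to 250.2 with the number 1 and at 2.78 to 8.04 with the number 2. Both environments held both numbers (6 and 3 libraries in EE, 5 and 3 in SE), and the number was kept as a term in the comparison of the environments. EE replicate 5 had the fewest UMIs of the CD4 libraries. It gave the lowest EE value of Mcl1, Mat2a and Hspe1, at 0 UMIs, and of Dnajb1, at 1 UMI. Cd4 itself was detected in 16 of the 17 libraries, at 1.23 to 18.9 in EE and at 0 to 10.4 in SE, with 0 UMIs in SE replicate 2. Cd8a and Cd8b1 were absent because libraries with such transcripts were left out by the authors. Of the markers of other cells that the sort could hold, 2 of 14 choroid plexus epithelial genes (Ttr and Enpp2) and 1 of 18 myeloid genes (Cst3) were among the genes measured, and 0 of the erythrocyte, endothelial, fibroblast, B cell and NK cell lists.

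Whether EE alters the RNA of choroid plexus CD4+ T cells was asked gene by gene. Chaperone genes, the survival gene Mcl1 and the methionine enzyme gene Mat2a had lower values in EE, and the U3 RNA gene Rnu3b4, the chemokine gene Ccl5, the chemokine receptor gene Cxcr6 and the surface antigen gene Ly6c2 had higher values. No gene passed the test over the whole table. With limma on log2(normalised count + 1), 0 of 483 genes (0%) reached an adjusted p below 0.05. Dnaja1 had the lowest, at 0.138. The unadjusted p was below 0.05 for 21 genes (4.35%), of which 12 were lower in EE (2.48% of all) and 9 higher in EE (1.86%). edgeR and DESeq2 on the recovered UMI counts each placed 1 gene under an adjusted p of 0.05, Dnaja1 again, and their unadjusted p was below 0.05 for 23 and 21 genes. By sign alone, 258 of the 483 genes (53.4%) were lower in EE, and the median log2 fold change over all genes was -0.02 (-0.08 within number 1 and 0.05 within number 2). In 0 genes did the EE and SE values not overlap. The study picked candidates by an unadjusted p under 0.01, a log2 fold change beyond 1 in either direction and a mean above 2. Applied here to the limma fit, this rule took 4 genes (0.828%), of which Dnaja1, Dnajb1 and Mcl1 were lower and Rnu3b4 was higher in EE. With DESeq2, which the study used, it also took Mat2a. Without EE replicate 5, the library of fewest UMIs, it took Dnaja1, Hspa1b and Rnu3b4. Of the 12 genes that the study tabulated, 0 were among the genes measured here. The count therefore cannot be set against that of the study. In bulk pools such as these, fewer cells that express a gene and less RNA per cell cannot be told apart.

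**Figure D1:**
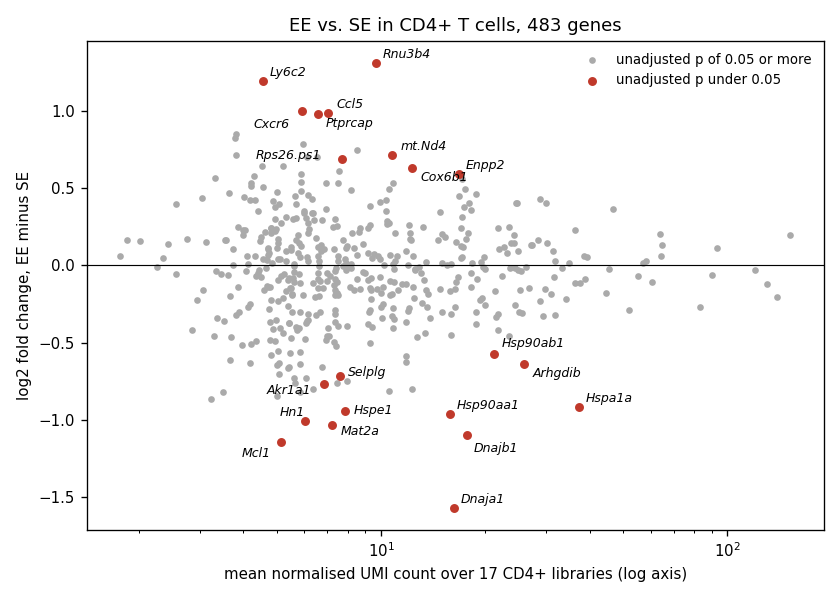
Log2 fold change (EE minus SE, from the limma fit with the first number as a term) against the mean normalised UMI count over the 17 CD4+ libraries on a log axis, 1 point for each of 483 genes. The 21 genes with an unadjusted p under 0.05 are red and named, and Dnaja1 lies lowest at -1.57.

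The heat shock proteins and their co-chaperones had the lowest median of the lists with at least 3 measured genes. Of 36 listed genes 12 were measured, 12 of 12 had a lower mean in EE on the log2 scale, and 6 had an unadjusted p under 0.05, beside 53.4% lower and 4.35% under that p over all genes. The median log2 fold change of the 12 was -0.72 (range -1.57 to -0.29), beside -0.02 over all 483 genes, and 0 of them had an adjusted p under 0.05. All 12 were also lower after rescaling to equal library totals, after size factors recomputed over CD4 libraries, and with edgeR and DESeq2. Without EE replicate 5, the library of fewest UMIs, 11 were lower, and Hsp90b1 was at 0.03. Among libraries with the number 1 the median was -0.91 with 12 lower, and among those with the number 2 it was -0.41 with 11 lower, the exception being Hsp90b1 at 0.09. The summed normalised count of the 12 genes was 166 ± 48.3 in EE (SD, n = 9, lowest 110, median 161, highest 248) and 267 ± 81.9 in SE (n = 8, lowest 160, median 253, highest 365), so the groups overlapped.

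The sequences before 3 of these genes are shown because each had an unadjusted p under 0.05 and holds the paired GAA and TTC units of heat shock elements. They were read from the RefSeq promoter table (build GRCm38.p6), written 5′ to 3′ on the strand of the gene, with matches to GAANNTTC or TTCNNGAA in capitals. Each of these patterns reads the same on both strands, and matches of the 2 patterns may overlap. The Hspa1a window (chr17:34972213-34972300, minus strand) holds bases 144 to 57 before the start. The Hspe1 window (chr1:55088053-55088082, plus strand) holds bases 95 to 66 before its start, and the Dnaja1 window (chr4:40722333-40722362, plus strand) bases 135 to 106, both inside an exon of an annotated transcript. Starts are those of RefSeq. In GENCODE, Dnaja1 begins at 40722150, so its window lies after that start and inside the gene. The same stretch lies inside the GENCODE span of Hspd1.
Hspa1a: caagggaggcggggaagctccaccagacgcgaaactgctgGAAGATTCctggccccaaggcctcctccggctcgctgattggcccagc
Hspe1: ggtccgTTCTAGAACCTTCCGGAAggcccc
Dnaja1: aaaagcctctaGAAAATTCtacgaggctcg
Hspe1 carries 3 overlapping matches in a row, and its neighbour Hspd1 reads the same stretch as Hspe1 from the other strand. The Hspa1b window (chr17:34959295-34959382, minus strand) is the same as that of Hspa1a, and 247 of the 250 bases before the starts of these neighbouring genes are the same. A match in the 250 bases before the start was found for 5 of the 9 chaperone genes with a promoter in the table, for 48 of 318 genes of the expression table (15.1%) and for 3932 of 27025 mouse genes (14.5%). The 5 genes with a match to either pattern were Dnaja1, the Hspa1a and Hspa1b pair and the Hspe1 and Hspd1 pair, so they are not separate stretches. Dnajb1, which had a lower unadjusted p than Hspa1a and Hspe1, was among the 9 and had no match, nor had Hspa5, Hsp90b1 and Stip1. Matches describe letters in these windows and not binding.

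Dnaja1 and Dnajb1 encode HSP40 co-chaperones, which deliver unfolded proteins to HSP70 and start its ATPase cycle. Dnaja1 (chr4:40722150-40737149, plus strand) had a lowest, median and highest normalised count of 12.3, 26.7 and 38.1 in SE, and of 0, 9.90 and 14.1 in EE. All 9 EE libraries lay below the SE median, 7 of them below the lowest SE library, and 7 of the 8 SE libraries lay above the highest EE library. The log2 fold change was -1.57 (limma unadjusted p = 0.000286, adjusted p = 0.138, standard error 0.38), with 6 of 9240 assignments of environment within first numbers as extreme (exact permutation p = 0.000649, two-sided). In counted molecules this was 101 UMIs over the EE libraries and 232 over the SE libraries. EE replicate 8 had 0 UMIs of Dnaja1, and without it the log2 fold change was -1.20 with a limma adjusted p of 0.0426. Without EE replicate 5 the limma adjusted p was 0.0382. Over all alternatives, with edgeR and DESeq2 by their own tests among them, the adjusted p ran from 0.000395 (DESeq2) to 0.911. Its transcripts share 13.4% of their 31-base words with other genes, mostly the pseudogene Gm15542.

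Dnajb1 (chr8:83608193-83612653, plus strand) is a heat-inducible HSP40 gene. Its lowest, median and highest values were 6.64, 27.3 and 43.2 in SE and 2.94, 8.12 and 21.3 in EE, a log2 fold change of -1.10 (limma adjusted p = 0.518, standard error 0.36, exact permutation p = 0.0246). All 9 EE libraries lay below the SE median, while 4 of the 8 SE libraries lay within the EE range. The value was -1.10 among libraries of either first number, and for Dnaja1 it was -1.80 with the number 1 and -1.14 with the number 2.

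The HSP70 genes differed among themselves. Hspa1a (chr17:34969190-34972156, minus strand), which encodes an inducible HSP70, ran from 18.0 through a median of 37.9 to 85.6 in SE and from 10.6 through 17.4 to 64.7 in EE. The groups overlapped widely, with 6 of 9 EE libraries below the SE median, and the log2 fold change was -0.91 (limma adjusted p = 0.774, standard error 0.33, exact permutation p = 0.0497). Hspa1b, the neighbouring copy, had a value of -0.80 (standard error 0.39, unadjusted p = 0.051), and it also differed between the first numbers, by 1.54 on the log2 scale for number 2 against number 1 (limma adjusted p = 0.0266). The copies share 63.8% of the 31-base words of Hspa1a, so counts of the pair may have been split between them. Hspa8, the constitutive HSP70 of the cytosol, had a log2 fold change of -0.29 (standard error 0.22), and Hspa5, the HSP70 of the endoplasmic reticulum, one of -0.34 (standard error 0.28). These last values lay within 2 standard errors of 0.

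HSP90 holds clients such as kinases and steroid receptors in a state that can be activated. Hsp90aa1 (chr12:110690605-110702728, minus strand), its inducible cytosolic form, ran from 10.6 through 22.1 to 30.5 in SE and from 3.41 through 10.8 to 26.1 in EE, with 8 of 9 EE libraries below the SE median. The log2 fold change was -0.96 (limma adjusted p = 0.471, standard error 0.30, exact permutation p = 0.0109). The pseudogene Gm12346 holds 46.7% of its 31-base words, which makes its count uncertain to that extent. Hsp90ab1, the constitutive form, was at 25.8 ± 9.22 in SE and 17.2 ± 6.07 in EE, with all 9 EE libraries below the SE median. Its log2 fold change was -0.57 (limma adjusted p = 0.934, standard error 0.26, exact permutation p = 0.0548). Stip1, the adaptor that joins HSP70 to HSP90, had a value of -0.63 (standard error 0.38) and Hsp90b1, the form of the endoplasmic reticulum, one of -0.30 (standard error 0.44).

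Hspe1 and Hspd1 encode the co-chaperonin and the chaperonin of mitochondria and share a promoter. Hspe1 (chr1:55088132-55091307, plus strand) ran from 3.93 through 8.06 to 30.1 in SE and from 0 through 4.94 to 13.8 in EE, a log2 fold change of -0.94 (limma adjusted p = 0.896, standard error 0.38, exact permutation p = 0.0293). The highest SE value came from replicate 8, without which the fold change was -0.81. Hspd1 had a log2 fold change of -0.40 (standard error 0.31). The cytosolic chaperonin and prefoldin genes were represented by Tcp1 and Pfdn5, at -0.21 and 0.34.

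**Figure D2:**
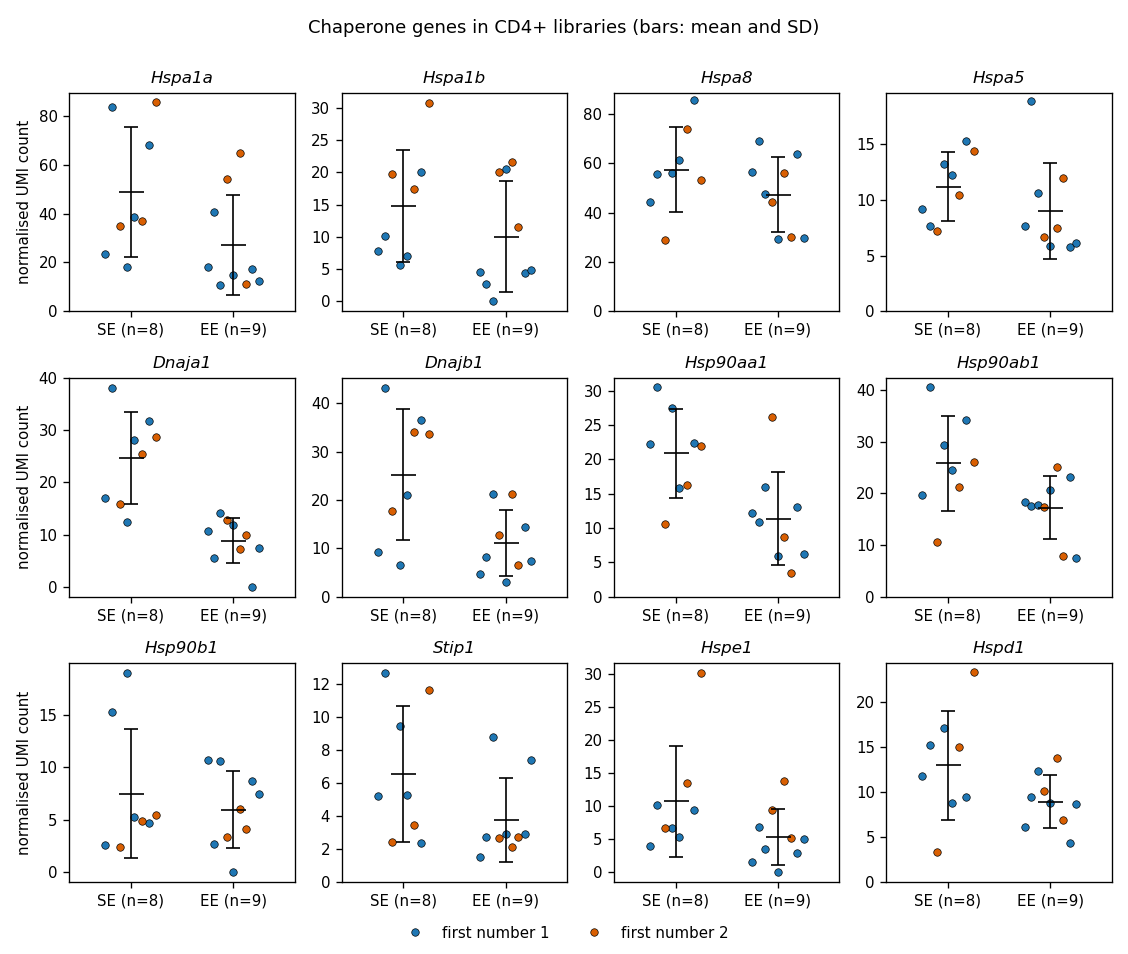
Normalised UMI counts of the 12 measured chaperone genes, 1 panel each and with its own axis, in the 8 SE and 9 EE libraries of CD4+ T cells. Points are libraries coloured by first number, and bars are the mean and SD; the EE mean is the lower in each panel, and Dnaja1 has the least overlap.

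In CD8+ T cells sorted from the same tissue, the same 12 genes had a median log2 fold change of -0.35, with 10 lower in EE and 2 (Hspa1a at -1.23 and Hspa5 at -0.97) with an unadjusted p under 0.05, beside 13 of 484 genes (2.69%) over the table. The difference between the effects was tested in a fit of all 31 libraries, in which CD4 and CD8 libraries of a mouse were treated as separate samples. For Dnaja1 the effects were -1.57 in CD4 and -0.72 in CD8 libraries, and the unadjusted limma p of their difference was 0.119 (standard error 0.63). The CD4 effect minus the CD8 effect was -0.50 for Dnajb1 (limma unadjusted p = 0.38) and 0.15 for Hspa1a (limma unadjusted p = 0.81). No difference between the cell types was detected for these genes, and the errors are wide. Over the whole table, 0 of 485 genes (0%) differed in their EE effect at an adjusted p under 0.05, and 18 (3.71%) did at an unadjusted p under 0.05.

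The markers of choroid plexus epithelium had higher means in EE. Enpp2 (chr15:54838901-54952892, minus strand), the gene of the secreted enzyme autotaxin, ran from 5.90 through 13.7 to 19.2 in SE and from 13.7 through 17.6 to 30.02 in EE, with all 9 EE libraries above the SE median. Its log2 fold change was 0.59 (limma adjusted p = 0.896, standard error 0.24, exact permutation p = 0.00649) in CD4 libraries and 0.95 in CD8 libraries. Ttr, which encodes the transthyretin that the epithelium secretes into the cerebrospinal fluid, ran from 70.5 to 195 in SE and from 97.3 to 233 in EE, with a log2 fold change of 0.20 (standard error 0.18). Their sum was 76.4 to 205 in SE and 114 to 263 in EE. Cst3, expressed by myeloid cells and by the epithelium, had a value of 0.30 (standard error 0.39). The part of epithelial RNA in the chaperone values was not tested.

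Mcl1 (chr3:95658788-95663176, plus strand) encodes a short-lived relative of BCL2 that T cells need to survive. It ran from 1.75 through 6.85 to 13.7 in SE and from 0 through 3.07 to 6.10 in EE, with all 9 EE libraries below the SE median. The log2 fold change was -1.15 (limma adjusted p = 0.654, standard error 0.39, exact permutation p = 0.00779), at -1.20 and -1.04 within the numbers 1 and 2. In CD8 libraries the value was 0.12, and the CD4 effect minus the CD8 effect was -1.33 (unadjusted p = 0.034, adjusted p = 0.939). These are low counts, where 1 UMI makes a visible step, and the other 4 measured survival genes, Bcl2, Gimap4, Gimap6 and Tpt1, lay between -0.12 and 0.15.

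Mat2a (chr6:72432799-72439558, minus strand) encodes the enzyme that makes S-adenosylmethionine, the methyl donor of the cell. It ran from 2.54 through 8.50 to 21.9 in SE and from 0 through 4.02 to 13.7 in EE, a log2 fold change of -1.04 (limma adjusted p = 0.896, standard error 0.41, exact permutation p = 0.0303). It was -1.06 and -0.98 within the numbers. Of 13 polyamine, methionine and redox genes 10 were lower, 1 of them with an unadjusted p under 0.05, but the list median of -0.05 was -0.36 with the number 1 and 0.47 with the number 2, so its direction depended on the first number.

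Rnu3b4 (chr11:87462286-87462500, plus strand, within Tex14) is a copy of the U3 small nucleolar RNA, which guides the first cleavages of the ribosomal RNA precursor. Its sequence is given because reads of its copies cannot be told apart. The GENCODE transcripts of Rnu3b1, Rnu3b2 and Rnu3b3 had 0 differences from it over the 215 bases compared.
Rnu3b4: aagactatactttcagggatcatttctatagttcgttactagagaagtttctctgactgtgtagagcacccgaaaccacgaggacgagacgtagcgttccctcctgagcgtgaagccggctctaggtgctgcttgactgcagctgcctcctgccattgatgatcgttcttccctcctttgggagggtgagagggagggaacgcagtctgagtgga
Its values ran from 0 through 4.92 to 13.4 in SE and from 2.90 through 10.8 to 25.7 in EE, with 8 of 9 EE libraries above the SE median. The log2 fold change was 1.31 (limma adjusted p = 0.471, standard error 0.39, exact permutation p = 0.00747), at 1.54 and 0.89 within the numbers 1 and 2. The entry named Rnu3b3 had a value of 0.83 (standard error 0.47). Because these entries are the same in sequence, how the UMIs were divided between them cannot be interpreted. The other 3 of 5 nuclear noncoding RNAs were lower, with a list median of -0.04. Within the numbers the list median had the other sign, at 0.31 in number 1 (2 lower) and 0.21 in number 2 (1 lower). In CD8 libraries it was 0.56 with 0 lower.

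The effector genes named in the text of the study, Cxcr6, Ifng and Ccl5, were chosen on these samples and are not independent evidence of a direction. Ccl5 (chr11:83525778-83530518, minus strand) encodes a chemokine secreted by memory T cells. It ran from 1.37 through 2.22 to 18.8 in SE and from 3.70 through 8.38 to 15.9 in EE. All 9 EE libraries lay above the SE median, and the highest value of all came from SE replicate 7. The log2 fold change was 0.99 (limma adjusted p = 0.896, standard error 0.40, exact permutation p = 0.0436), and 1.30 without SE replicate 7 (adjusted p = 0.449). Cxcr6 (chr9:123806475-123811760, plus strand, overlapping Fyco1) encodes a receptor that marks T cells resident in tissues. It ran from 0 through 3.28 to 10.5 in SE and from 2.90 through 7.17 to 14.9 in EE, with 8 of 9 EE libraries above the SE median. Its log2 fold change was 1.00 (limma adjusted p = 0.934, standard error 0.42, exact permutation p = 0.0413), at 0.97 and 1.06 within the numbers. Ifng (chr10:118441046-118445892, plus strand) encodes interferon gamma. It ran from 1.37 through 5.50 to 20.3 in SE and from 0 through 6.10 to 40.6 in EE, and the log2 fold change of 0.26 (standard error 0.50, exact permutation p = 0.697) was -0.01 without EE replicate 3. In CD8 libraries the values were 0.46 for Ccl5, 0.32 for Cxcr6 and -0.25 for Ifng. The CD4 effect minus the CD8 effect was 0.52 for Ccl5 (limma unadjusted p = 0.30), 0.66 for Cxcr6 (unadjusted p = 0.27) and 0.24 for Ifng (unadjusted p = 0.76).

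The effector lists held values in both directions. Of 7 effector products, Ccl5 and Ifng among them, 4 were higher and 3 lower, with a median of 0.26. Nkg7, a protein of cytotoxic granules, had a log2 fold change of 0.54 that was 0.94 with the number 1 and -0.19 with the number 2, and Xcl1, a chemokine gene, one of -0.06. Of 14 effector and memory genes 7 were higher and 7 lower, with a median of 0.06 that was -0.05 in number 1 and 0.18 in number 2. Ly6c2 (chr15:75108158-75111970, minus strand), a surface antigen of memory T cells, ran from 0 through 2.51 to 7.06 in SE and from 1.37 through 4.69 to 14.9 in EE, a log2 fold change of 1.20 (limma adjusted p = 0.896, standard error 0.48, exact permutation p = 0.0397). It was 1.66 with the number 1 and 0.35 with the number 2, and 23.7% of its 31-base words are shared, mostly with Ly6c1. Cxcr3, the receptor of interferon-induced chemokines, had a value of -0.82 and the memory marker Cd44 one of -0.05.

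**Figure D3:**
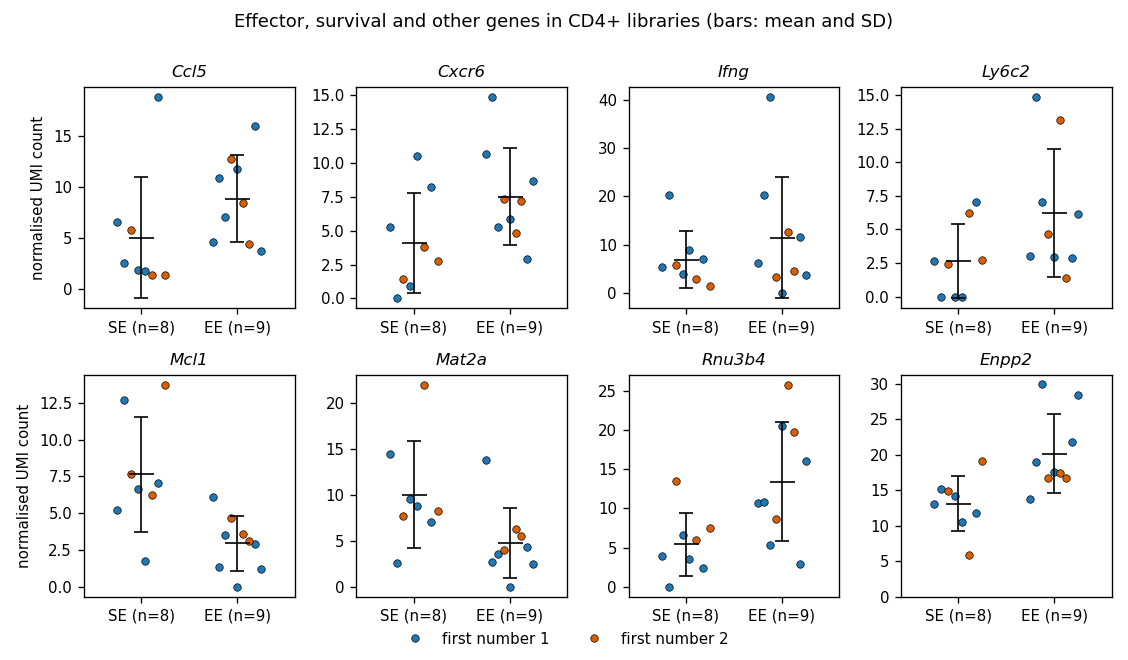
Normalised UMI counts of Ccl5, Cxcr6, Ifng, Ly6c2, Mcl1, Mat2a, Rnu3b4 and Enpp2 in the 8 SE and 9 EE libraries of CD4+ T cells, 1 panel each with its own axis. Points are libraries coloured by first number and bars are the mean and SD; groups overlap in each panel, and single high libraries are seen for Ccl5 in SE and Ifng in EE.

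Genes of adhesion and homing gave single values in both directions. Of 8 measured genes 7 were lower, with a median of -0.11. Within number 1 it was 6 (median -0.26) and within number 2 it was 4 (median 0.03), and in CD8 libraries 2 were lower with a median of 0.37. Selplg, which encodes the selectin ligand PSGL-1, was at 9.71 ± 4.28 in SE and 5.72 ± 2.65 in EE, a log2 fold change of -0.72 (limma adjusted p = 0.934, standard error 0.33, exact permutation p = 0.0288). In CD8 libraries it was 0.67, and the CD4 effect minus the CD8 effect was -1.40 (unadjusted p = 0.0040, adjusted p = 0.939). Itgb7, the beta chain of a gut-homing integrin, had a value of -0.63, S1pr1, the receptor for egress from tissues, one of -0.14, and Itgb2 one of -0.08.

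Of 12 T cell identity genes 7 were higher and 5 lower, with a median of 0.07 and a range of -0.50 to 0.98. The lowest was Cd2, an adhesion receptor of T cells, at -0.50 (standard error 0.36), and the CD3 chain genes Cd3d and Cd3g were at 0.11 and 0.21. Ptprcap, a partner of CD45, was the only one of the 12 with a limma unadjusted p under 0.05, at 0.98 (standard error 0.44, exact permutation p = 0.0659). Its value was 1.54 with the number 1 and -0.03 with the number 2, and 25.4% of its 31-base words are shared with the overlapping Coro1b. Cd4 had a log2 fold change of 0.59 (standard error 0.43). The regulatory T cell list was represented by 1 of 8 genes, Tnfrsf18, at 0.29, and the naive list by 2 of 15, S1pr1 and Klf2.

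Immediate early and activation genes, which respond within minutes to receptor signals, had a median of -0.19, with 10 of 17 lower and 0 at an unadjusted p under 0.05. Zfp36l1, which destabilises messenger RNAs, was at 8.66 ± 5.71 in SE and 4.34 ± 3.38 in EE, a log2 fold change of -0.80 (limma adjusted p = 0.934, standard error 0.39). Dusp1, Klf6 and Nfkbia lay between -0.59 and -0.44, and Junb, Nr4a2 and Btg2 at 0.05 to 0.06. Btg1, an antiproliferative gene, was at -0.46 (standard error 0.28). Among libraries with the number 2, 15 of the 17 were lower with a median of -0.46, and with the number 1 it was 9 with a median of -0.02. Of 6 genes on the glucocorticoid response list 5 were lower, with a median of -0.52, but 2 of them are the HSP90 genes that are also on the chaperone list. HSP90 holds steroid receptors, so these 2 do not report a response to the hormone. They were the only members with a limma unadjusted p under 0.05, and Hsp90aa1 had the lowest value, at -0.96. Btg1, Dusp1 and Nfkbia are also counted among the immediate early and activation genes above, so the lists are not separate evidence. Tsc22d3, a direct target of the glucocorticoid receptor, had a value of 0.11.

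Antigen presentation genes had a median of 0.16, with 8 of 10 higher and 0 at an unadjusted p under 0.05. H2.K1, a classical MHC class I heavy chain, was at 40.1 ± 10.5 in SE and 52.8 ± 14.0 in EE (log2 fold change 0.37, standard error 0.18, limma adjusted p = 0.934), and B2m, its light chain, had a value of 0.20. H2.Q7, a nonclassical heavy chain, was at 0.45 (standard error 0.27). Interferon-induced genes had a median of -0.06, with 6 of 9 lower, but 7 were lower in number 1 (median -0.13) and 2 in number 2 (median 0.18).

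Genes of translation and respiration gave medians close to that of all genes. The median was -0.02 over 80 ribosomal protein genes (45 lower), -0.03 over 15 translation factors, -0.07 over 31 nuclear respiratory chain genes and 0.05 over 13 mitochondrially encoded genes (10 higher). The first 3 of these medians had opposite signs in the first numbers, at 0.02 and -0.14, at -0.20 and 0.15, and at -0.05 and 0.15 in number 1 and number 2. Eif5, a translation initiation factor, was at -0.56 (standard error 0.39) and Uqcrh, a subunit of complex III, at 0.78 (standard error 0.40). Single members with a limma unadjusted p under 0.05 were Cox6b1, a subunit of cytochrome c oxidase, and mt.Nd4, a subunit of complex I. Cox6b1 was at 0.63 (standard error 0.30, exact permutation p = 0.0516). The value of mt.Nd4, of whose 31-base words 62.8% are shared, was 0.71 (standard error 0.35, exact permutation p = 0.0793). Of 41 pseudogene entries 24 were higher, with a median of 0.02, and Rps26.ps1 was at 0.69 (standard error 0.32) beside 0.49 (standard error 0.25) for its parent Rps26, with which it shares 70.9% of its words. Gm4149, of whose words 87.4% are also in Rpl37a, was at 0.53 (standard error 0.29). Medians were 0.11 over 11 ubiquitin and proteasome genes, -0.14 over 13 RNA processing genes, 0.09 over 7 chromatin genes and 0.06 over 8 vesicle and lysosome genes, with 0 members at an unadjusted p under 0.05. Except for the vesicle list, these medians also differed in sign between number 1 and number 2, at 0.096 and -0.0084 for ubiquitin and proteasome, -0.34 and 0.22 for RNA processing, and -0.15 and 0.41 for chromatin. Srsf7 and Srrm2, which act in splicing, were at -0.81 (standard error 0.40) and -0.67 (standard error 0.39), Npm1, a nucleolar histone chaperone, at 0.74 (standard error 0.37) and the ubiquitin gene Ubb at -0.27 (standard error 0.20). Akr1a1, an aldehyde reductase, and Hn1, both on no list, were at -0.77 (standard error 0.34) and -1.01 (standard error 0.46), the second at -1.50 and -0.12 within the numbers 1 and 2.

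**Figure D4:**
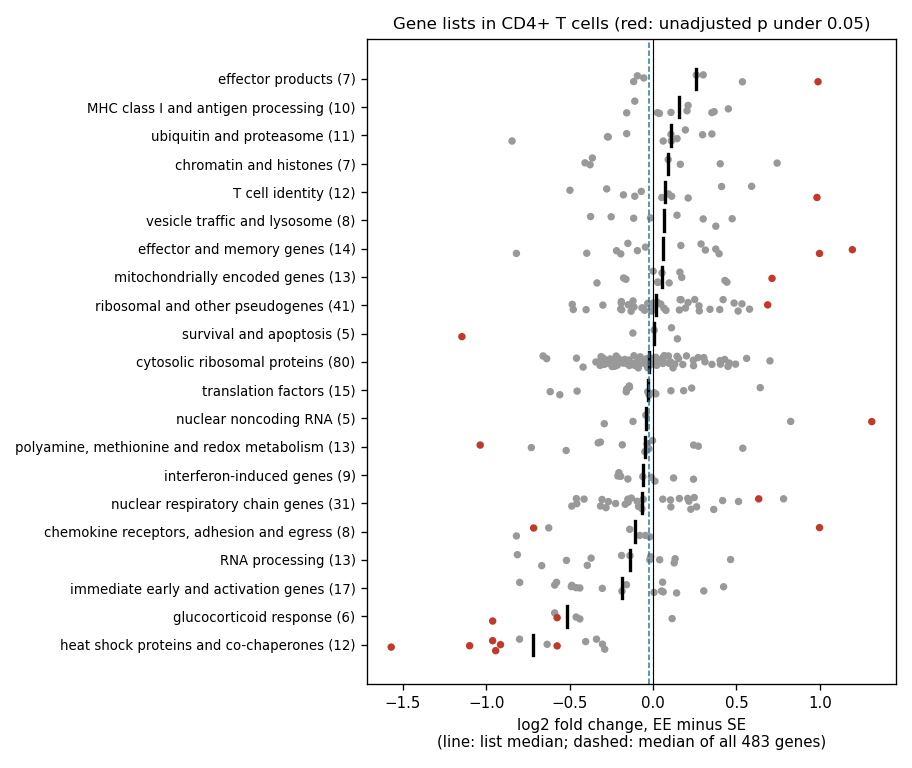
Log2 fold changes (EE minus SE in CD4+ T cells) of the genes of the lists described here, with the number of genes tested in brackets; black lines are list medians and the dashed line is the median of all 483 genes. The chaperone list has the lowest median, at -0.72, and most lists lie within 0.2 of 0.

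The direction of the leading genes was compared within the first numbers. Of the 21 genes with an unadjusted p under 0.05, Ptprcap alone had opposite signs in number 1 and number 2. These 21 were picked in a fit of the same libraries, so their equal signs and the overlaps below follow in part from that choice. They are not independent evidence of a direction, and the share of all genes with equal signs was not counted. In number 1 there were 20 genes at an unadjusted p under 0.05, of which 12 were among the 21, and in number 2 there were 19, of which 6 were. Neither number alone had a gene with an adjusted p under 0.05. Some of the 21 did not reach 0.05 in the exact permutation test within first numbers. Its p was 0.0516 for Cox6b1, 0.0548 for Hsp90ab1, 0.0627 for Arhgdib, 0.0659 for Ptprcap, 0.0708 for Hn1 and 0.0793 for mt.Nd4. For the others of the 21 it lay under 0.05.

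**Figure D5:**
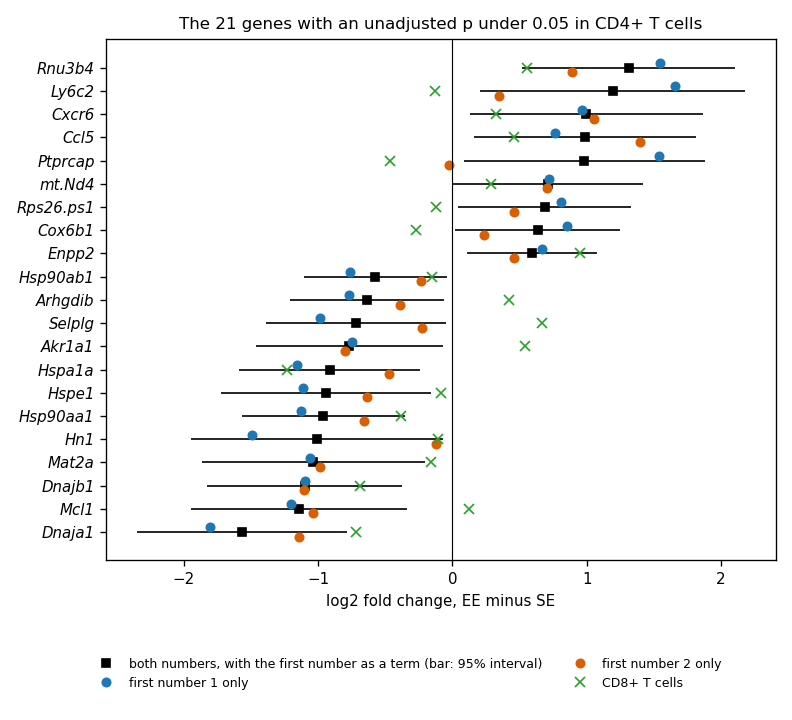
Log2 fold changes (EE minus SE) of the 21 genes with an unadjusted p under 0.05, from the fit of all 17 CD4+ libraries with its 95% interval (squares and bars), from libraries of each first number alone (circles) and from CD8+ T cells (crosses). Ptprcap is the gene whose circles lie on both sides of 0, and the crosses of 8 genes (Ly6c2, Ptprcap, Rps26.ps1, Cox6b1, Arhgdib, Selplg, Akr1a1 and Mcl1) lie on the other side of 0 from the squares. Circles and squares share libraries, and the genes were picked by the fit of all 17.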

How the data were processed

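RNA of sorted pools of choroid plexus CD4+ and CD8+ T cells was sequenced by the authors with UMIs. They trimmed reads with cutadapt, mapped them with STAR 2.4.0a to mm10 (GRCm38), used Drop-seq tools to count the UMIs of each gene, removed genes of low abundance and CD4 samples with Cd8a or Cd8b transcripts, and normalised with DESeq2. The deposited values are a normalised signal, the UMI counts of each library divided by one size factor. From it whole UMI counts were recovered for 100% of values (within 0.001 of a whole number). A UMI removes PCR copies, but a library with 0 UMIs of a gene may hold up to 3 counts' worth of it, and this covers counting error only.

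Groups came from the sample titles. EE was compared with SE over 17 CD4 libraries with limma 3.58.1 in R 4.3.3 on log2(normalised count + 1), with a variance trend, the first title number as a term, two-sided tests and Benjamini-Hochberg adjustment over 483 genes at 0.05. Fold changes on this scale understate those of low counts. The test script was tested on simulated data. Single genes were also tested by exact permutation of environment within first numbers (9240 assignments). The effect in CD4 minus that in CD8 was fitted over 31 libraries, so it can depart from the difference of the effects fitted within each cell type. The alternatives were edgeR 4.0.16 and DESeq2 1.42.0 on recovered counts, pseudocounts of 0.5 and 4, a mean of at least 5, other scalings, no variance trend, other covariates, a replicate block, each first number alone and leaving out each library.

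The genes named were the 10 with the lowest p in each direction, those picked by the rule of the study, Cxcr6, Ifng and Ccl5, and the 2 members with the lowest p of each list with at least 3 measured genes (49 genes). Members of lists named beside them were chosen after their values were seen. The comparison, its members and the gene lists were chosen with earlier results of these data known. Of 485 symbols 470 matched GENCODE names in GRCm38. Shared sequence is the percentage of 31-base words of a gene that occur in another gene, and a dot in a symbol stands for a hyphen. One gene list and some single gene values are not reported here.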

Additional observations from a re-analysis of the deposited data

Results flagged for a closer look

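Single libraries stood apart from the other libraries of their group in 13 of 98 checks of named genes (Dixon's criterion at the 95% level, for which chance flags about 1 in 20 groups of normally distributed values). In each of the 13 the library was the highest of its group. The checks used normalised counts that were not log-transformed, for which that rate need not hold. The number of flags therefore cannot be set against it. SE replicate 7 held 5 of the 13, with normalised counts of 18.8 for Ccl5 (the next SE library was at 6.55), 63.5 for H2.K1 (next 43.2), 32.9 for Ifi27l2a (next 19.3), 12.9 for Pabpc1 (next 5.69) and 38.8 for H3f3b (next 22.9). EE replicate 1 was at 13.7 for Mat2a (next 6.29) and at 51.8 for Arhgdib (next 26.0), and without it their log2 fold changes were -1.27 and -0.80. EE replicate 2 was at 17.6 for Ptprcap (next 9.58), and SE replicate 8 at 30.1 for Hspe1 (next 13.5). Ifng was at 40.6 in EE replicate 3 (next 20.3) and at 20.3 in SE replicate 2 (next 8.77), and its log2 fold change was -0.01 without the first and 0.48 without the second. Ctsd, a lysosomal protease gene, was at 16.0 in EE replicate 9 (next 9.47) and at 14.0 in SE replicate 5 (next 7.62).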

How the results depend on the processing

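Over 33 alternatives, the count of genes with an adjusted p under 0.05 was 1 (Dnaja1) with limma at a pseudocount of 4. It was also 1 (Dnaja1) with edgeR and with DESeq2, each by its own test. With limma it was 0 to 1 when single libraries were left out (1 without EE replicate 5 or EE replicate 8). The candidate rule of the study gave 1 gene with a pseudocount of 4, 7 with edgeR, and 3 to 7 when single libraries were left out, with 7 without SE replicate 3. The count at an unadjusted p under 0.05 ran from 18 to 31. Of the values of named genes, 1595 stayed on their side of the threshold in the same direction, 5 of Dnaja1 passed it and 15 of 12 genes turned sign. In number 2 alone the log2 fold changes were -0.026 for Ptprcap, 0.47 for Prdx6, -0.19 for Nkg7, 0.015 for Ly6e, 0.041 for Capzb, -0.26 for Rps16, 0.48 for mt.Rnr1, 0.010 for Ube2b and -0.074 for Atp6v1f, and the log2 UMI total differed by 0.27. In number 1 alone they were -0.039 for Ifng and -0.019 for Ifi27l2a, and the number of sorted cells differed by -0.17. Leaving out single libraries gave -0.010 to 0.66 for Ifng (lowest without EE replicate 3) and -0.24 to 0.082 for Gimap6 (highest without EE replicate 5), and Gimap6 was at 0.047 with edgeR and 0.036 with DESeq2. The cause of these turns was not tested. The deviations of same-numbered animals of EE and SE had correlations of -0.09 to 0.05 over 6 pairs. With low counts and few pairs, this check cannot decide whether the numbers pair samples. With a replicate block, limma gave 0 genes at an adjusted p and 25 at an unadjusted p under 0.05. Low counts limit single genes, since 1 UMI is a visible step in libraries of few UMIs, and the 3 libraries of each group with number 2 bound what a comparison within it can show.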
